A study of Mus musculus with 8 samples.

Results

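The genes of the TNF superfamily, which encode the ligands related to tumour necrosis factor and their receptors, were described in splenic dendritic cells of wild type and RAG2-/- mice. A gene belonged to the family when a probe set carried its symbol alone and the symbol began with Tnfsf or Tnfrsf or was Tnf, Lta, Ltb, Ltbr, Cd40, Cd27, Cd70, Fas or Fasl. By this rule 36 of the 18193 genes named on the array were members, with 58 of its 45101 probe sets. Of these 36 genes, 16 reached a log2 expression value of 5 on at least 2 of the 8 arrays and were tested with the other genes that did so, 8763 in all, and 20 did not. The ligands are described first, then the receptors with a death domain, then the remaining receptors.

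The dendritic cells came from the spleens of untreated female C57BL/6 mice, 10 weeks old by the sample labels and 8 to 10 weeks by the design text. The mice were wild type or RAG2-/- (called the knockout), which lack the recombinase needed to build antigen receptors and so have no mature T or B lymphocytes but keep innate cells such as NK cells and neutrophils. From each genotype cells were sorted as CD8α+ or CD8α-, and each of the 4 groups (wild type CD8α-, wild type CD8α+, knockout CD8α-, knockout CD8α+) was hybridised on 2 arrays. Neither the number of mice behind an array nor a separate origin of the replicates is given, and the p-values then cover only the spread between these arrays, which may be technical. The study asked how the lymphocytes bear on these antigen-presenting cells.

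Ligands of the family are mostly membrane-anchored trimers that cluster their receptors on a neighbouring cell, and some are shed. The receptors recruit TRAF adaptors that lead to NF-kB and survival, or, where they carry a death domain, adaptors that can activate caspase-8 and cell death. In the spleen, lymphotoxin made by lymphocytes acts through the lymphotoxin β receptor on stroma and dendritic cells and is known to sustain the CD8α- dendritic cells, and CD40 is the receptor through which T cells license dendritic cells.

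Checks on the arrays bear on how the values can be read. Cd8a averaged 11.83 on the wild type CD8α+ arrays against 5.95 in CD8α- cells, and 12.41 against 7.30 in the knockout, so the sort was visible. The 7 conventional dendritic cell markers averaged 12.3 to 13.2 on every array. Rag1 and Rag2 were below 5 on all arrays and gave no check of genotype. Of all probe sets, 41.1% in the knockout CD8α- group and 41.8% in the knockout CD8α+ group stood at 1 shared lowest value, 2.23, which the wild type arrays lack. Genotype and array processing can therefore not be told apart in any comparison of knockout with wild type. Both arrays of the knockout CD8α+ group also held exactly the same value for 3 of the members (Tnfsf14, Fasl and Fas), so their replicate spread of 0 there is no measure of precision. In whole sorted populations, fewer cells of a type and less RNA per cell cannot be told apart.

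The family differed between the subsets mainly through a few genes with low CD8α+ values. In wild type cells 5 of the 16 tested members fell in CD8α+ cells relative to CD8α- cells (Ltb, Fasl, Tnfsf14, Tnfrsf13b and Tnfrsf1b), 1 rose (Tnfrsf21) and 10 did not pass the test. A gene was called at a Benjamini-Hochberg adjusted p under 0.05 in a limma fit over all 8763 genes, and by that rule 7.87% of all genes fell and 9.23% rose. In the knockout the same 5 members fell and 2 others rose (Tnfrsf4 and Tnf), with 9 not called, beside 10.7% of all genes that fell and 11.1% that rose. Of these 5, Fasl reached the filter value only on CD8α- arrays, and Tnfsf14 only on those of the knockout. For these genes the filter itself favoured a fall in CD8α+ cells. The median log2 difference of the members was -0.29 in wild type and -0.12 in the knockout, against 0.01 and 0.02 over all genes. At an unadjusted p under 0.05, 10 of the 16 members passed in wild type and 9 in the knockout. Over all 8763 genes, 2606 and 3059 did so.

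**Figure D1:**
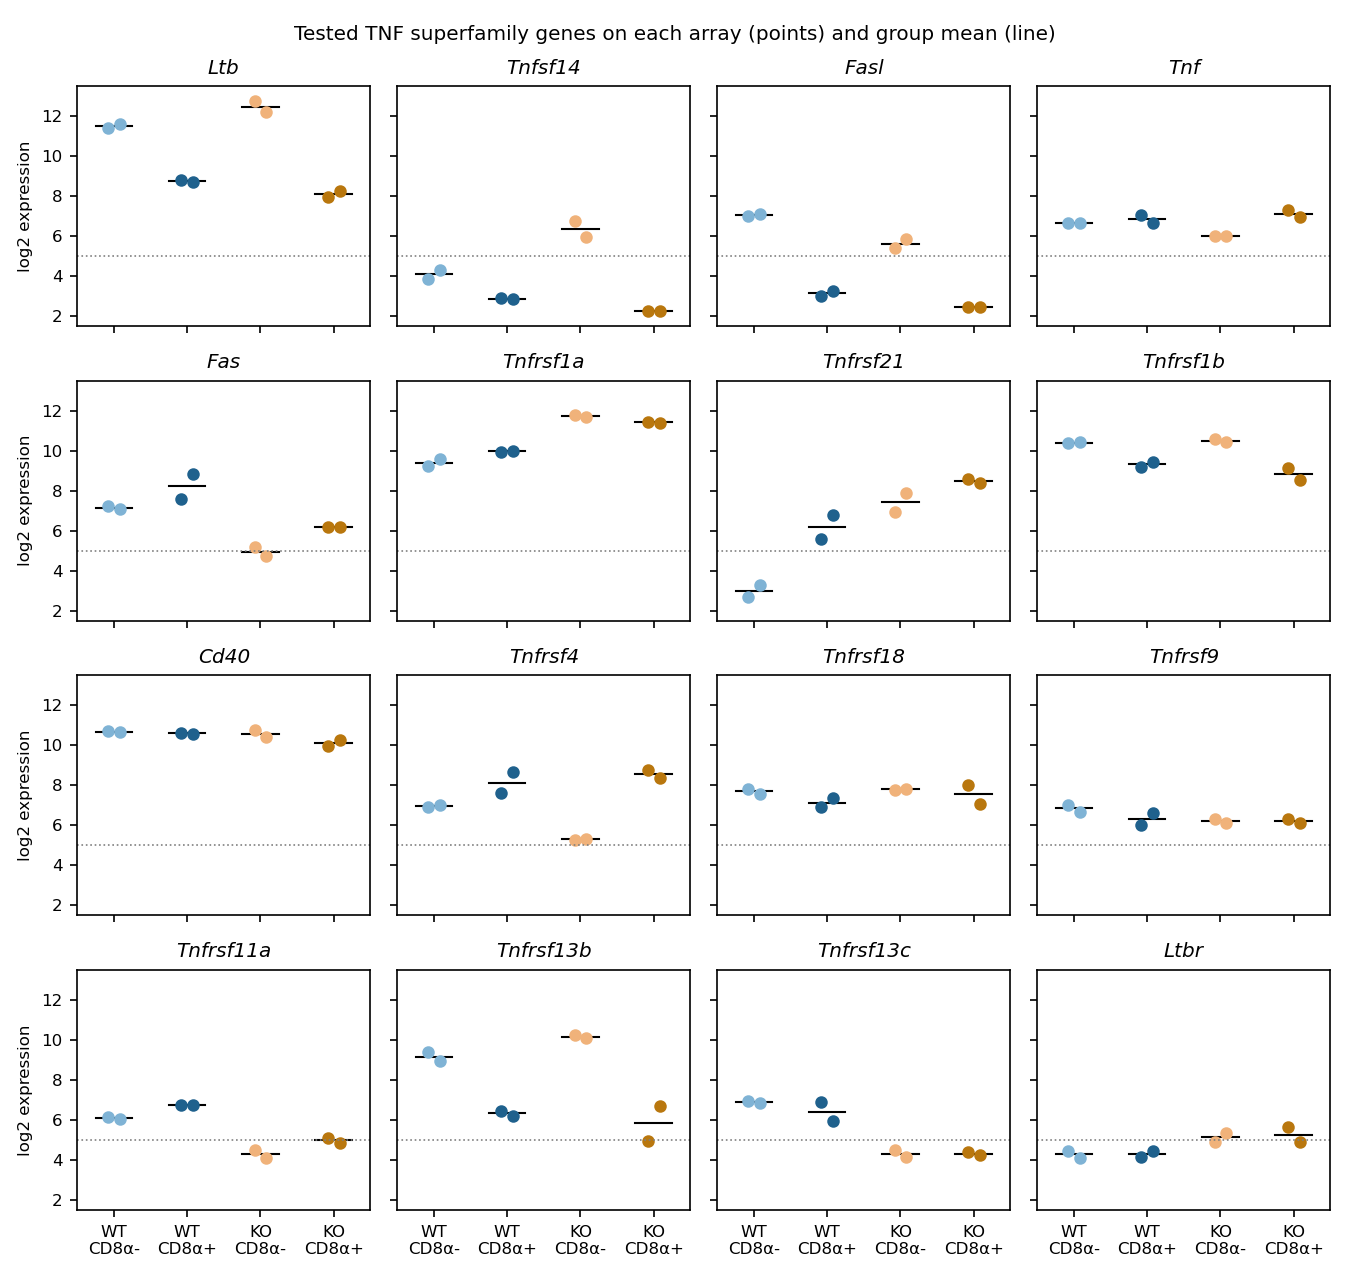
Log2 expression (vertical axis) of the 16 tested members in the 4 groups, with a point per array, a line at the group mean and a dotted line at the filter value of 5. Ltb and Tnfrsf13b were high in the CD8α- cells of both genotypes, while Cd40, on the probe set that represents it, lay between 9.97 and 10.74.

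The bases before the transcription start of the 5 members with the largest called differences between subsets in the knockout are given here, since these genes set the pattern: Ltb, Tnfrsf13b, Tnfsf14 and Fasl, high in CD8α- cells, and Tnfrsf4, high in CD8α+ cells. The sequences are those of RefSeq on GRCm38.p6, 5′ to 3′ on the strand of the gene, each 250 bases that end at the base before the start. Capitals mark matches to the motifs searched.
Ltb, chr17:35194257-35194506 (+): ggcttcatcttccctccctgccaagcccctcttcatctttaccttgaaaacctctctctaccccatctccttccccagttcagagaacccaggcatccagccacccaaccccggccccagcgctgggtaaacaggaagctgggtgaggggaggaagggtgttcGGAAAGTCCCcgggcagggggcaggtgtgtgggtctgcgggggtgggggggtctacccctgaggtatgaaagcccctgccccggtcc
Tnfrsf13b, chr11:61126505-61126754 (+): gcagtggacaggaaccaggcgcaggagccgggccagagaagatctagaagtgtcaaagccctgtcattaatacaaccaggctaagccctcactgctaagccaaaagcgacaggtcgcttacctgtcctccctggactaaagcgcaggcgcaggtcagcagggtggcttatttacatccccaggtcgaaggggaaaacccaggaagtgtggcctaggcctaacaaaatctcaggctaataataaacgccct
Tnfsf14, chr17:57194182-57194431 (-): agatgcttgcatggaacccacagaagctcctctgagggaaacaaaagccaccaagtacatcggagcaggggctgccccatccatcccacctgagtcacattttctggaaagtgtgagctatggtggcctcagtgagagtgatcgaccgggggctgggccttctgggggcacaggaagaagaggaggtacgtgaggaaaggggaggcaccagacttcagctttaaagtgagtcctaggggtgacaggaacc
Fasl, chr1:161788496-161788745 (-): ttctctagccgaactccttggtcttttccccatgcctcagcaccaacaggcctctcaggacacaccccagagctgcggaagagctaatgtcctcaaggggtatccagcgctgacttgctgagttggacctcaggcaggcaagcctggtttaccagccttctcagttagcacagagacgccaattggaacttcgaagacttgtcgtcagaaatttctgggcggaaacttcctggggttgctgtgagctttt
Tnfrsf4, chr4:156013445-156013694 (+): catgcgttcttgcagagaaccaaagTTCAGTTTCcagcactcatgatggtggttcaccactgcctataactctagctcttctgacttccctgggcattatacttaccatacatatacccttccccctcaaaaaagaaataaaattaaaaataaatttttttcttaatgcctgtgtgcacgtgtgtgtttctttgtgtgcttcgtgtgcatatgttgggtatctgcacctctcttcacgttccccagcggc

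The motifs were the NF-kB consensus, the interferon-stimulated element core GAAANNGAA and the PU.1 site GAGGAAGT, searched on both strands of windows from 250 bases before to 50 bases after each start. No match in a window of a tested member overlapped a match to another motif. The Ltb window held an NF-kB match on the opposite strand, from -87 to -78, and the Tnfrsf4 window a GAAANNGAA match on the opposite strand, from -225 to -217. The Fasl, Tnfsf14 and Tnfrsf13b windows held none of these letters. Over all 32851 windows of that length, 8.46% held the NF-kB motif, 8.56% GAAANNGAA and 3.2% GAGGAAGT, and of the 16 windows of tested members 2, 2 and 0 did. These are matches of letters, not measured sites. Of the 36 members, 28 had a window in the table, among them 15 of the 16 tested.

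Among the ligands, 4 of 12 member genes were tested, and 3 of them were lower in CD8α+ cells in both genotypes. Of these 3, Fasl and Tnfsf14 passed the filter through CD8α- arrays alone, which favoured such a fall. Only Ltb reached the filter value in both subsets. Ltb encodes lymphotoxin β, the membrane anchor of the heterotrimer that binds the lymphotoxin β receptor. Its log2 values were 11.41 and 11.62 on the wild type CD8α- arrays, 8.79 and 8.72 on the wild type CD8α+ arrays, 12.76 and 12.18 on the knockout CD8α- arrays, and 7.96 and 8.27 on the knockout CD8α+ arrays. The subsets did not overlap in either genotype, and the knockout arrays lay outside the wild type arrays on both sides. In wild type Ltb was 6.75-fold lower in CD8α+ cells (log2 difference -2.76, SE 0.24, adjusted p = 0.000443). In the knockout it was 20.5-fold lower (-4.36, SE 0.24, adjusted p = 7.17e-05).

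Fasl, the ligand of the death receptor Fas and a product of cytotoxic lymphocytes, stood at 6.99 and 7.13 on the wild type CD8α- arrays and at 3.0 and 3.28 on the wild type CD8α+ arrays. In the knockout it was 5.42 and 5.85 in CD8α- cells and 2.45 on both arrays of CD8α+ cells. Every CD8α+ array was thus below the filter value. Fasl was at least 4.16-fold lower in CD8α+ cells in wild type (log2 difference -3.92, SE 0.21, adjusted p = 7.11e-05), where at least means against a level of 5. The bound in the knockout was at least 1.55-fold (-3.18, SE 0.21, adjusted p = 0.000138), and with values under 5 set to 5 that difference did not pass (adjusted p = 0.0507). Of the 8 listed NK cell markers 3 were tested. Klrd1 was called lower in CD8α+ cells in both genotypes, by 2.22 on the log2 scale in wild type and 2.79 in the knockout. Gzma (-1.37 and -1.03) and Nkg7 (0.14 and -1.11) were not called. The 3 genes averaged 8.21 to 8.27 on the wild type CD8α- arrays and 6.79 to 7.38 in CD8α+ cells. In the knockout the averages were 9.18 to 10.6 against 7.96 to 8.55. Of the other NK markers, Ncr1, Gzmb, Prf1 and Eomes did not pass the filter, and Klrb1c had no probe set of its own. The part of NK transcripts in the Fasl difference was not tested.

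Tnfsf14 encodes LIGHT, a second ligand of the lymphotoxin β receptor that also binds HVEM. It reached 6.77 and 5.97 on the knockout CD8α- arrays and stood at 2.28 on both knockout CD8α+ arrays. The wild type arrays were all below 5, with 3.88 and 4.32 in CD8α- cells and 2.89 and 2.88 in CD8α+ cells. Only in the knockout CD8α- group was the gene above the filter value. It fell at least 2.58-fold in CD8α+ cells of the knockout (log2 difference -4.09, SE 0.29, adjusted p = 0.000172). In wild type the log2 difference was -1.21 (SE 0.29, adjusted p = 0.0271) between groups that were both below 5, so no fold is given, and the call was lost without any 1 of the 4 wild type arrays (adjusted p from 0.0722 to 0.169) and without either knockout CD8α+ array (0.0514 each).

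Tnf, the founding cytokine, moved the other way. Its values were 6.68 and 6.65 on the wild type CD8α- arrays, 7.05 and 6.68 on the wild type CD8α+ arrays, 5.99 and 6.01 on the knockout CD8α- arrays and 7.32 and 6.94 on the knockout CD8α+ arrays. The wild type groups overlapped (log2 difference 0.20, SE 0.21, adjusted p = 0.603), and in the knockout Tnf was 2.19-fold higher in CD8α+ cells (1.13, SE 0.21, adjusted p = 0.00904). That call was lost in a fit of the compared groups alone, with the same difference of 1.13 (adjusted p = 0.0554), and without the knockout arrays that carried neutrophil transcripts, with a difference of 0.95 (adjusted p = 0.0875).

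**Figure D2:**
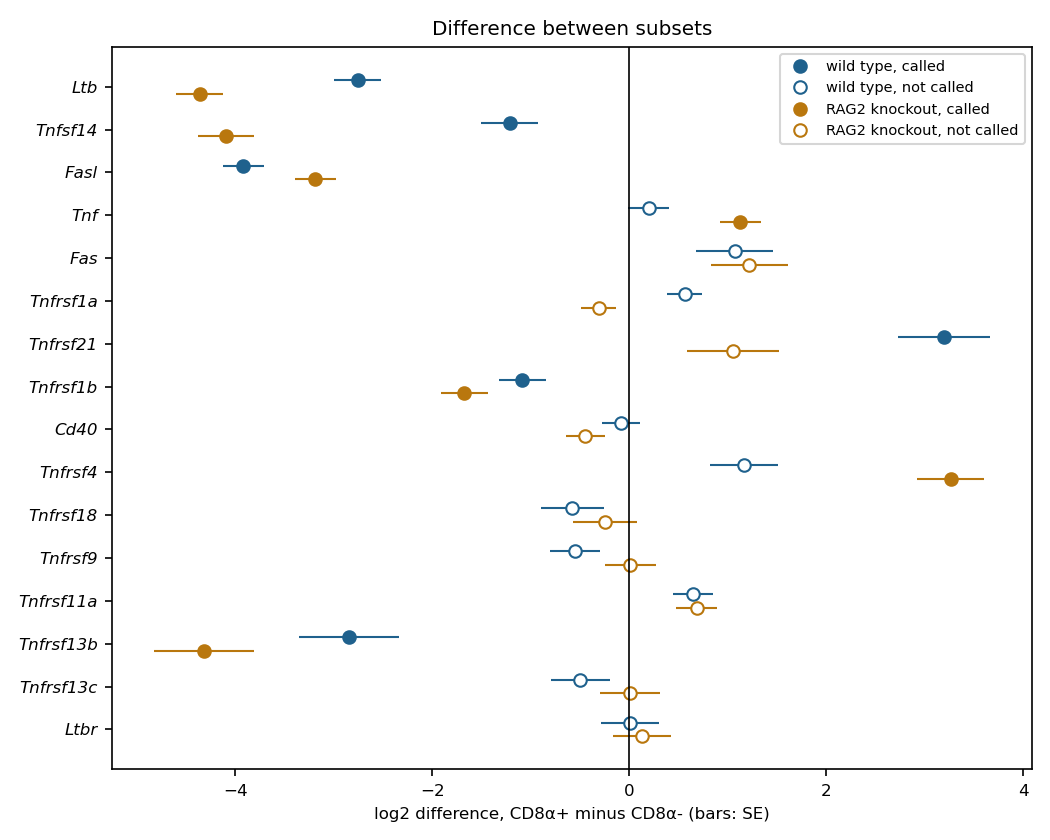
Log2 difference of CD8α+ minus CD8α- cells (horizontal axis) for each tested member in wild type and in the knockout, with the standard error of the fit as bars and filled points where the gene was called. Ltb, Tnfsf14, Fasl, Tnfrsf13b and Tnfrsf1b lie to the left of 0 in both genotypes with filled points.

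Of the 5 death domain receptors, Fas, Tnfrsf1a and Tnfrsf21 were tested and only Tnfrsf21 in wild type was called between the subsets. Fas, which triggers the caspase-8 pathway, stood at 7.23 and 7.06 on the wild type CD8α- arrays and 7.58 and 8.86 in CD8α+ cells. In the knockout it was 5.18 and 4.75 in CD8α- cells and 6.18 on both CD8α+ arrays. The CD8α+ arrays were above the CD8α- arrays in each genotype, but the differences of 1.07 (SE 0.39, adjusted p = 0.115) and 1.22 (SE 0.39, adjusted p = 0.0664) did not pass the test. Tnfrsf1a, the broadly expressed TNF receptor with a death domain, was 9.23 and 9.57 on the wild type CD8α- arrays, 9.95 and 9.98 on the wild type CD8α+ arrays, 11.77 and 11.68 on the knockout CD8α- arrays and 11.44 and 11.39 on the knockout CD8α+ arrays. Its subset differences were 0.57 (adjusted p = 0.0750) in wild type and -0.31 (adjusted p = 0.266) in the knockout, neither of them called.

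Tnfrsf21 encodes death receptor 6. On its brighter probe set, which represents the gene, it stood at 2.71 and 3.29 on the wild type CD8α- arrays and 5.59 and 6.80 on the wild type CD8α+ arrays. The knockout values were 6.95 and 7.91 in CD8α- cells and 8.61 and 8.37 in CD8α+ cells. The wild type CD8α- arrays alone were below the filter value. The gene rose at least 2.29-fold in wild type CD8α+ cells (log2 difference 3.20, SE 0.47, adjusted p = 0.00392), and setting values under 5 to 5 removed the call (1.20, adjusted p = 0.126). In the knockout the difference of 1.06 (SE 0.47) did not pass (adjusted p = 0.158). The dimmer probe set of Tnfrsf21 gave another picture of the subsets. It was between 3.29 and 3.40 on all 4 wild type arrays, with a difference of 0.06 (SE 0.17, adjusted p = 0.897), and in the knockout it rose from 3.93 and 3.96 in CD8α- cells to 5.98 and 5.71 in CD8α+ cells (1.90, SE 0.17, adjusted p = 0.000825). Which genotype shows the subset difference in Tnfrsf21 therefore depended on the probe set.

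Among the 15 other listed receptors 9 were tested. Tnfrsf13b, the receptor TACI for the B cell survival factors BAFF and APRIL, stood at 9.40 and 8.93 on the wild type CD8α- arrays, 6.45 and 6.20 on the wild type CD8α+ arrays, 10.22 and 10.09 on the knockout CD8α- arrays and 4.97 and 6.71 on the knockout CD8α+ arrays. Every CD8α- array was above every CD8α+ array in each genotype, with the widest replicate gap in the knockout CD8α+ group. The gene was 7.16-fold lower in CD8α+ cells of wild type mice (log2 difference -2.84, SE 0.51, adjusted p = 0.00919) and 19.9-fold lower in those of the knockout (-4.31, SE 0.51, adjusted p = 0.00142). The wild type call was lost without any 1 of the 4 wild type arrays (adjusted p from 0.0510 to 0.0819).

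Tnfrsf1b, the TNF receptor without a death domain, was 10.38 and 10.44 on the wild type CD8α- arrays, 9.19 and 9.46 on the wild type CD8α+ arrays, 10.58 and 10.43 on the knockout CD8α- arrays and 9.13 and 8.53 on the knockout CD8α+ arrays. The subsets did not overlap, and the CD8α- arrays of both genotypes lay between 10.38 and 10.58. The gene was 2.12-fold lower in CD8α+ cells in wild type (log2 difference -1.08, SE 0.24, adjusted p = 0.0199) and 3.18-fold lower in the knockout (-1.67, SE 0.24, adjusted p = 0.00298). Without any 1 of the 4 wild type arrays the former did not pass (adjusted p from 0.0636 to 0.113).

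Tnfrsf4 encodes OX40, a costimulatory receptor best known on activated T cells. It stood at 6.90 and 7.03 on the wild type CD8α- arrays, 7.60 and 8.66 on the wild type CD8α+ arrays, 5.29 and 5.31 on the knockout CD8α- arrays and 8.77 and 8.36 on the knockout CD8α+ arrays. The subsets were apart in both genotypes, and the knockout CD8α- arrays were the lowest. In the knockout Tnfrsf4 was 9.61-fold higher in CD8α+ cells (log2 difference 3.27, SE 0.34, adjusted p = 0.000825). In wild type the difference of 1.17 (SE 0.34) did not pass (adjusted p = 0.0585). The 2 of 9 listed T cell markers that were tested were Cd5 and Bcl11b. They averaged 5.76 on both arrays of knockout CD8α- cells and 3.82 to 4.75 on the knockout CD8α+ arrays. In wild type the averages were 6.77 to 7.35 against 6.15 to 6.43. Cd5 was called lower in CD8α+ cells of the knockout (-2.57, adjusted p = 0.00820) and was not called in wild type (-1.54, adjusted p = 0.0625). Bcl11b overlapped between the subsets and was called in neither genotype. The part of T cell transcripts in the Tnfrsf4 subset differences was not tested.

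Cd40, Tnfrsf18 and Tnfrsf9 were called in none of the 5 comparisons on the probe sets that represent them. Cd40, the receptor of the T cell ligand CD40L, stood between 10.55 and 10.71 in wild type and between 9.97 and 10.74 in the knockout. Its 2 further probe sets that passed the filter ran from 9.59 to 10.92 and from 6.94 to 7.94 over the 8 arrays. The former was lower in knockout CD8α+ cells than in wild type (log2 difference -0.92, SE 0.25, adjusted p = 0.0283), where the representing probe set gave -0.47 (adjusted p = 0.0994) and the latter -0.06 (adjusted p = 0.876). Tnfrsf18, the costimulatory receptor GITR, lay between 6.89 and 8.01, and Tnfrsf9, the costimulatory receptor 4-1BB, between 6.00 and 7.04. Ltbr, the lymphotoxin β receptor itself, was near the filter value, with 4.44 and 4.11 on the wild type CD8α- arrays, 4.13 and 4.44 on the wild type CD8α+ arrays, 4.91 and 5.36 on the knockout CD8α- arrays and 5.63 and 4.91 on the knockout CD8α+ arrays. Its subsets overlapped in both genotypes (log2 difference 0.01 and 0.13, SE 0.30 each). Tnfrsf11a, the receptor RANK, stood at 6.15 and 6.02 on the wild type CD8α- arrays, 6.72 and 6.75 on the wild type CD8α+ arrays, 4.52 and 4.08 on the knockout CD8α- arrays and 5.11 and 4.86 on the knockout CD8α+ arrays. Its subset differences of 0.65 (adjusted p = 0.0778) and 0.69 (adjusted p = 0.0553) were not called, and its other probe set gave -0.49 and -0.67.

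Tnfrsf13c, the BAFF receptor, was 6.97 and 6.86 on the wild type CD8α- arrays, 6.87 and 5.97 on the wild type CD8α+ arrays, 4.49 and 4.14 on the knockout CD8α- arrays and 4.40 and 4.24 on the knockout CD8α+ arrays. It was below the filter value on all 4 knockout arrays. The subset differences were -0.49 (SE 0.30) in wild type and 0.01 (SE 0.30) in the knockout, with overlapping arrays in both.

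The 20 members that did not pass the filter were below 5 on every array, and 15 of them were below 3.5 on every array. The highest values were 4.52 for Tnfsf9, the ligand of 4-1BB, 4.36 for Tnfrsf12a, the receptor of TWEAK, 4.10 for Lta, the soluble lymphotoxin that pairs with lymphotoxin β, 3.82 for Tnfsf8, the ligand of CD30, and 3.5 for Tnfrsf11b, the soluble decoy osteoprotegerin. Tnfsf13b, which encodes BAFF, reached 3.45, and Tnfrsf22, a decoy receptor, 3.25. Cd27 reached 3.01, Tnfsf10, which encodes TRAIL, 2.96, the non-coding Tnfsf13os 2.90, and Tnfrsf19 and Tnfrsf25 2.76 each. Tnfsf4, the ligand of OX40, reached 2.68, Tnfsf11, the ligand of RANK, 2.59, the decoy receptor Tnfrsf23 2.49 and Cd70, the ligand of CD27, 2.32. Tnfrsf10b, a TRAIL receptor, reached 2.28, Tnfrsf14, which encodes HVEM, 2.26, Tnfrsf17, which encodes BCMA, 2.24, and Tnfrsf8, which encodes CD30, the shared lowest value of 2.23. These are array signals near background, and a low signal does not show that a gene is not expressed.

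Between the genotypes, 10 of the 16 tested members changed in CD8α- cells and 7 in CD8α+ cells. In knockout CD8α- cells 4 members were higher than in wild type (Tnfrsf1a, Tnfrsf21, Tnfsf14 and Ltb) and 6 lower (Tnfrsf11a, Tnfrsf13c, Fasl, Fas, Tnfrsf4 and Tnf), while 23.4% of all genes were higher and 17.1% lower. In knockout CD8α+ cells 3 were higher (Tnfrsf1a, Tnfrsf21 and Ltbr) and 4 lower (Tnfrsf11a, Tnfrsf13c, Fas and Fasl), beside 20.8% and 16.1% of all genes. Tnfrsf13c reached the filter value only on wild type arrays, and Tnfsf14 and Ltbr only on knockout arrays. The filter itself thus favoured the direction of these genes. The median of the members was -0.01 in CD8α- cells, against 0.14 over all genes, and -0.48 in CD8α+ cells, against 0.09. Centring each array on its median moved the median of all genes to 0.81 and 0.78 and turned the members' split to 8 higher and 5 lower in CD8α- cells and 6 higher and 3 lower in CD8α+ cells, and quantile normalization gave 5 and 5, and 3 and 5. Over all genes, centring called 5301 in CD8α- cells and 5106 in CD8α+ cells, and quantile normalization 3464 and 3260. Each genotype comparison uses arrays that also enter a subset comparison.

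Tnfrsf1a was higher in the knockout in both subsets, 5.01-fold in CD8α- cells (log2 difference 2.33, SE 0.18, adjusted p = 0.000427) and 2.73-fold in CD8α+ cells (1.45, SE 0.18, adjusted p = 0.00201). All 4 knockout arrays, from 11.39 to 11.77, were above all 4 wild type arrays, from 9.23 to 9.98. Both differences kept their call in each of the 22 alternatives. Tnfrsf21 was at least 5.39-fold higher in knockout CD8α- cells (4.43, SE 0.47, adjusted p = 0.00112) and 4.89-fold higher in knockout CD8α+ cells (2.29, SE 0.47, adjusted p = 0.0102). Its further probe set gave 0.60 (SE 0.17, adjusted p = 0.0336) and 2.45 (SE 0.17, adjusted p = 0.000502). The CD8α+ difference on the main probe set was lost without the first wild type CD8α+ array (1.68, adjusted p = 0.0566) and without the first knockout CD8α+ array (2.17, adjusted p = 0.0558).

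Between the genotypes most macrophage markers moved in the same direction as Tnfrsf1a and Tnfrsf21. The 8 of 11 listed macrophage genes that were tested averaged 7.25 to 7.70 on the wild type CD8α- arrays, 6.55 to 6.77 on the wild type CD8α+ arrays, 9.94 to 10.1 on the knockout CD8α- arrays and 8.76 to 9.19 on the knockout CD8α+ arrays. All 8 rose in knockout CD8α- cells and 7 on the knockout CD8α+ arrays. The other, Vcam1, averaged 11.46 on the knockout CD8α+ arrays against 12.00 in wild type. Marco and Siglec1 stayed below 3 on every array, and Mertk, with a highest value of 6.49, did not pass the filter. Between the knockout subsets the macrophage average was lower in CD8α+ cells. Tnfrsf1a was lower there as well (11.42 against 11.72) and Tnfrsf21 higher (8.49 against 7.43), neither of them called. C1qa, C1qc and Cd5l reached the filter value only on knockout arrays, so the filter itself favoured a rise of these genes. The part of macrophage transcripts in the differences of the receptors was not tested.

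Ltb was 0.96 higher on the log2 scale in knockout CD8α- cells (SE 0.24, adjusted p = 0.0182) and had a difference of -0.64 in CD8α+ cells, which was not called (adjusted p = 0.0728). The CD8α- call was lost without the first or the second wild type CD8α- array (adjusted p = 0.105 and 0.0594) and without the first knockout CD8α- array (0.0692). Tnfsf14 was at least 2.58-fold higher in knockout CD8α- cells (log2 difference 2.27, SE 0.29, adjusted p = 0.00179), and in CD8α+ cells both groups were below 5. Ltbr was at least 1.20-fold higher in knockout CD8α+ cells (0.98, SE 0.30, adjusted p = 0.0380), and 11 of its 21 alternatives lost that call. In CD8α- cells the difference of 0.86 for Ltbr was not called (adjusted p = 0.0544).

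Tnfrsf13c was the member with the lowest knockout difference in both subsets. It fell at least 3.77-fold in the CD8α- cells of the knockout (log2 difference -2.60, SE 0.30, adjusted p = 0.00142) and at least 2.67-fold in the CD8α+ cells (-2.10, SE 0.30, adjusted p = 0.00317). B cell transcripts ran with it, and of 5 tested genes 4 fell in knockout CD8α- cells and 5 in knockout CD8α+ cells. These 5 of 11 listed B cell genes that were tested (Cd79b, Ms4a1, Fcmr, Jchain and Igha) averaged 9.05 to 9.50 on the wild type CD8α- arrays, 8.06 to 8.98 on the wild type CD8α+ arrays, 4.48 to 4.74 on the knockout CD8α- arrays and 4.80 to 4.87 on the knockout CD8α+ arrays. The defining B cell genes Cd79a, Pax5, Ebf1 and Blk were below 5 on every array of both genotypes. Tnfrsf13c, Fcmr and Igha reached the filter value only on wild type arrays, so the filter itself favoured a fall of these genes in the knockout. The part of B cell transcripts in the Tnfrsf13c difference was not tested. Tnfrsf13b, the related receptor, differed by 0.99 in CD8α- cells (SE 0.51, adjusted p = 0.158) and by -0.48 in CD8α+ cells (SE 0.51, adjusted p = 0.486), neither of them called.

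Fas was 4.54-fold lower in knockout CD8α- cells (log2 difference -2.18, SE 0.39, adjusted p = 0.00570) and 4.10-fold lower in knockout CD8α+ cells (-2.04, SE 0.39, adjusted p = 0.00822). All 4 knockout arrays, at 6.18 or less, were below all 4 wild type arrays, at 7.06 or more. Tnfrsf11a fell at least 2.12-fold in the CD8α- cells of the knockout (-1.79, SE 0.21, adjusted p = 0.00139) and by 1.75 on the log2 scale in the CD8α+ cells (adjusted p = 0.00179), and its other probe set gave -1.81 (adjusted p = 0.0449) and -1.99 (adjusted p = 0.0351). Fasl fell by 1.43 on the log2 scale in knockout CD8α- cells (SE 0.21, adjusted p = 0.00292), where the tested NK markers averaged 9.18 to 10.6 against 8.21 to 8.27 in wild type. The tested T cell markers, Cd5 and Bcl11b, averaged 5.76 there on both arrays against 6.77 to 7.35 in wild type, and Bcl11b was called lower (-1.99, SE 0.41, adjusted p = 0.00965) and Cd5 was not (-0.61, adjusted p = 0.319). Of the other T cell markers, Cd3e, Cd3g, Thy1 and Lat were below 5 on every array and Cd3d did not pass the filter. The part of T cell transcripts in the Fasl difference was not tested. In CD8α+ cells its difference of -0.69 (adjusted p = 0.0382) lay between groups that were both below 5 and was lost in 14 of 21 alternatives.

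Tnfrsf4 fell by 1.67 on the log2 scale in knockout CD8α- cells (SE 0.34, adjusted p = 0.00898) and differed by 0.43 in CD8α+ cells, where it was not called (adjusted p = 0.355). The T cell markers ran in the same direction in CD8α- cells, with the values given for Fasl, and in the other direction in CD8α+ cells. There both tested T cell markers were called lower in the knockout, with a median log2 difference of -2.01. The part of T cell transcripts in the Tnfrsf4 differences was not tested. Without the first or the second wild type CD8α- array the CD8α- call was lost, with differences of -1.74 and -1.60 (adjusted p = 0.0526 and 0.0583). Tnf fell by 0.67 on the knockout CD8α- arrays (SE 0.21, adjusted p = 0.0385) and lost that call without any 1 of the 4 arrays compared (adjusted p from 0.0994 to 0.141). With each array centred on its median the Tnf difference was -0.01 (adjusted p = 0.972).

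**Figure D3:**
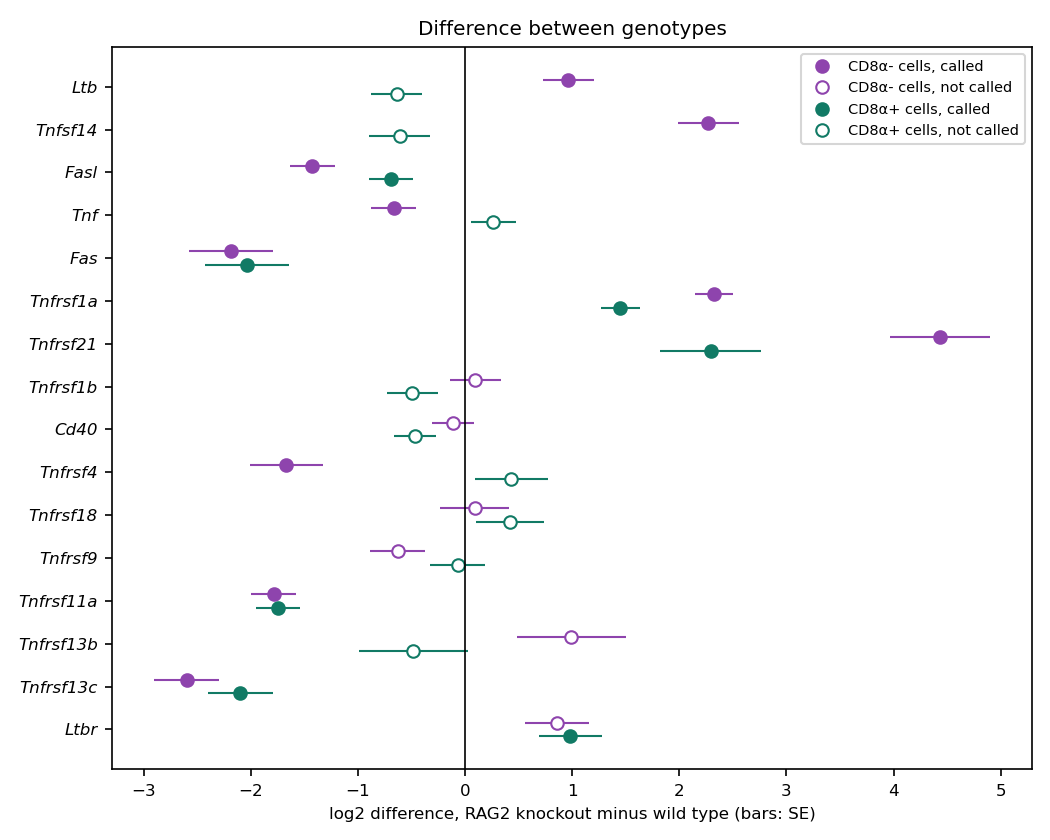
Log2 difference of RAG2 knockout minus wild type (horizontal axis) for each tested member in CD8α- and in CD8α+ cells, with the standard error of the fit as bars and filled points where the gene was called. Tnfrsf1a and Tnfrsf21 lie to the right of 0 in both subsets, and Fas, Fasl, Tnfrsf11a and Tnfrsf13c to the left.

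Neutrophil transcripts were high on 1 array of each knockout group. The 6 of 9 listed neutrophil genes that were tested averaged 2.79 to 3.09 on the wild type arrays, 3.13 and 10.1 on the knockout CD8α- arrays and 8.42 and 3.48 on the knockout CD8α+ arrays. Without those 2 arrays each knockout group kept 1 array. Fewer members were then called between the genotypes in both subsets, and fewer genes were called over all genes as well. The calls lost included Fas, which differed by -1.97 in CD8α- cells and by -2.04 in CD8α+ cells. Tnfrsf4 differed by -1.68 in CD8α- cells and Tnfrsf21 by 2.17 in CD8α+ cells. Ltbr differed by 0.63 in CD8α+ cells, in place of 0.98, and Tnf by 0.95 between the knockout subsets, in place of 1.13. Tnf between the genotypes in CD8α- cells (-0.68) and Fasl in CD8α+ cells (-0.69) also lost their calls. Fas and Fasl held equal values on both knockout CD8α+ arrays, so their CD8α+ differences could not change. Tnfrsf1a, Tnfrsf11a and Tnfrsf13c kept their calls in both subsets. This repeat was chosen after the neutrophil transcripts had been seen.

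**Figure D4:**
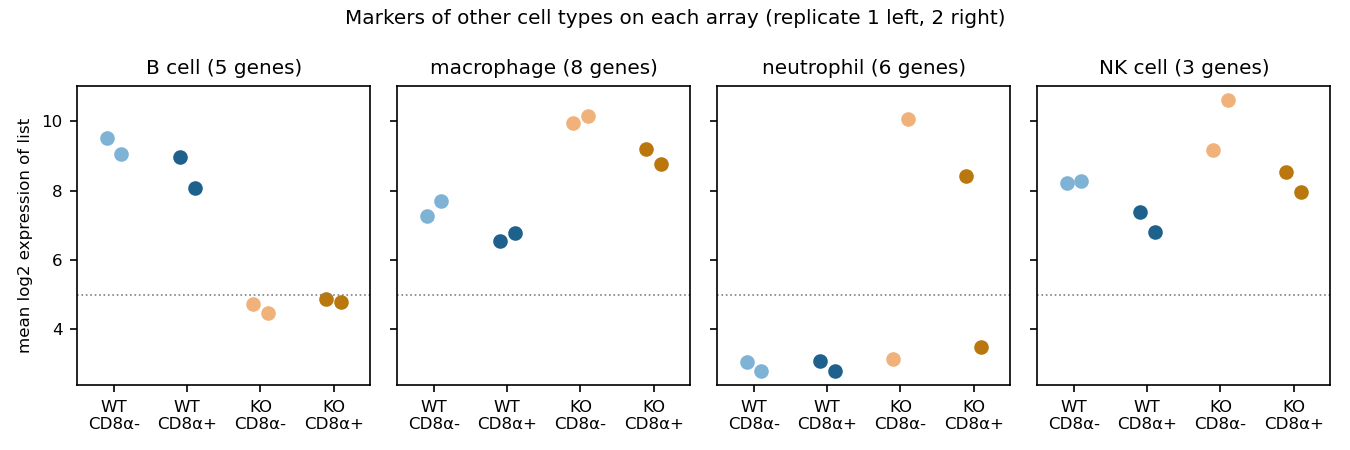
Mean log2 expression (vertical axis) of the tested B cell, macrophage, neutrophil and NK cell markers on each array, with the replicates of a group side by side and a dotted line at 5. B cell markers were lower on all 4 knockout arrays, macrophage markers were higher on them, and the neutrophil markers reached 10.1 and 8.42 on single knockout arrays.

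Whether a subset difference was itself different between the genotypes was tested as an interaction, in which an offset shared by the arrays of a genotype cancels. No member passed by limma at an adjusted p under 0.05 (0 of 16), and 0.24% of all genes did. At an unadjusted p under 0.05, 7 of 16 members passed, beside 635 of all 8763 genes. Tnfsf14 was nearest, with an interaction of -2.88 (SE 0.40, adjusted p = 0.0587), and its adjusted p over the alternatives ran from 0.0316, without the second knockout CD8α- array, to 0.352. For Tnfsf14 only the knockout CD8α- group was above 5, and both knockout CD8α+ arrays held the same value. With values under 5 set to 5 its interaction was -1.37. The interaction was -1.60 for Ltb (SE 0.34, adjusted p = 0.243), 2.10 for Tnfrsf4 (SE 0.48, adjusted p = 0.279) and -1.47 for Tnfrsf13b (SE 0.72, adjusted p = 0.738). For Tnfrsf21 it was -2.14 on the main probe set (SE 0.66, adjusted p = 0.497) and 1.84 on the other (SE 0.25, adjusted p = 0.0694). The larger subset differences of Ltb, Tnfrsf13b and Tnfrsf4 in the knockout are therefore not shown to differ from those in wild type. The median interaction of the members was 0.08, against -0.02 over all genes.

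Several members are neighbours on their chromosomes with no other coding gene between them (RefSeq, GRCm38.p6), and these neighbours did not share 1 pattern. Ltb, Tnf and Lta lie side by side on chromosome 17. Ltb was lower in CD8α+ cells in both genotypes, Tnf was higher there in the knockout, and Lta was below 5 on every array. Tnfsf9, Cd70 and Tnfsf14 form a second run on the same chromosome, of which Tnfsf14 alone passed the filter. Tnfrsf4 and Tnfrsf18 are adjacent on chromosome 4. Their subset differences in the knockout were 3.27 and -0.24 (adjusted p = 0.637 for Tnfrsf18), although both encode costimulatory receptors.

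The other genes of the pathway were counted in the same fit. Of 60 listed adaptors, kinases, proteases, induced genes and related receptors 44 were tested. In wild type 6 of them rose in CD8α+ cells, 3 fell and 35 were not called, with a median of -0.09, and in the knockout 6 rose, 6 fell and 32 were not called, with a median of -0.24. As shares, 13.6% rose and 6.82% fell in wild type, near the 9.23% and 7.87% of all genes, and 13.6% rose and 13.6% fell in the knockout, near the 11.1% and 10.7%. Tnfaip2, a TNF-induced gene, rose by 2.83 on the log2 scale in wild type (SE 0.35, adjusted p = 0.00186) and by 1.77 in the knockout (adjusted p = 0.0124). Btla, the inhibitory receptor that binds HVEM, rose by 2.25 (SE 0.21, adjusted p = 0.000609) and 1.92 (adjusted p = 0.00112). Litaf rose by 1.79 and 1.37 and the protease gene Adam8 by 1.28 and 1.38, each called in both genotypes. Map3k5, the stress kinase ASK1, fell by 1.74 in wild type (SE 0.23, adjusted p = 0.00261) and by 1.63 in the knockout (adjusted p = 0.00315). Tnip1, a partner of the NF-kB inhibitor A20, fell by 0.68 and 0.82, Map3k8 by 0.73 in wild type, and Otulin and Ikbkb by 0.87 and 0.83 in the knockout.

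**Figure D5:**
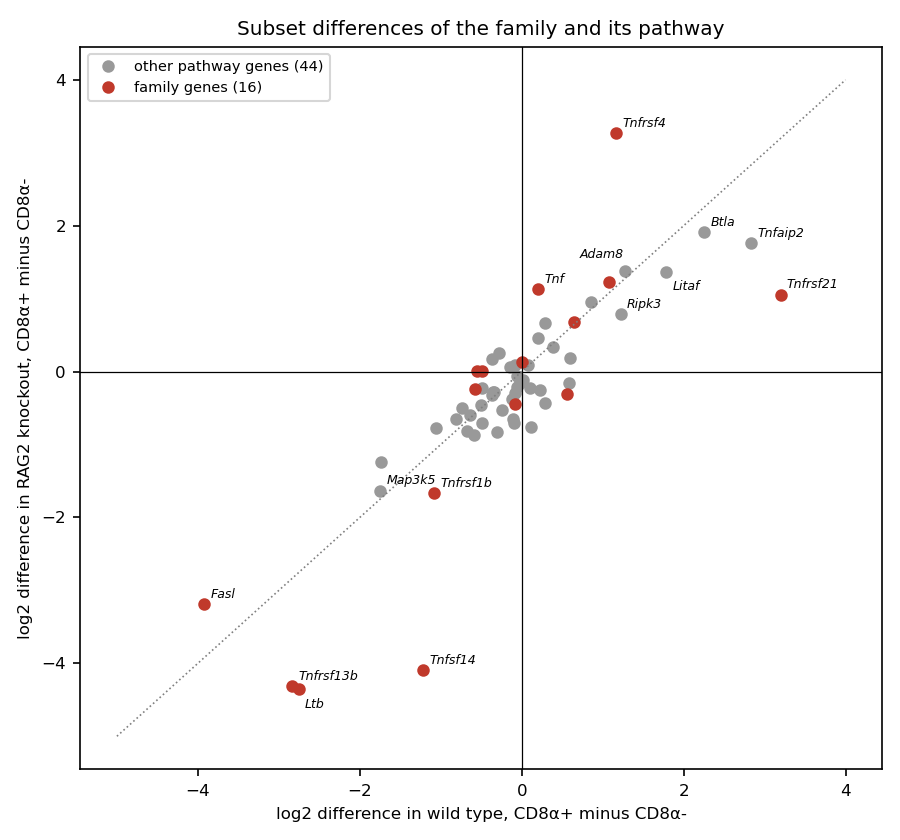
Log2 difference between CD8α+ and CD8α- cells in wild type (horizontal axis) against the same in the knockout (vertical axis) for the 16 tested family genes and the 44 other pathway genes. Names mark genes called in at least 1 genotype with a difference of 1 or more, and the dotted line marks equal differences. Fasl, Ltb, Tnfrsf13b and Tnfsf14 lie at the lower left, each lower on the knockout axis than Map3k5 at -1.63.

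Between the genotypes 6 of the 44 pathway genes were higher and 9 lower in knockout CD8α- cells (median 0.16), and 3 were higher and 7 lower in knockout CD8α+ cells (median -0.01). The shares were 13.6% and 20.5% in CD8α- cells, beside 23.4% and 17.1% of all genes, and 6.82% and 15.9% in CD8α+ cells, beside 20.8% and 16.1%. In CD8α- cells Casp8, the initiator caspase below the death receptors, rose by 1.56 (SE 0.29, adjusted p = 0.00627), Litaf by 1.05, Tnfaip3, which encodes A20, by 0.98, and Rnf31, a subunit of the linear ubiquitin ligase, by 0.92. Tank, an adaptor of the TRAF proteins, fell by 1.5 in CD8α- cells (SE 0.16, adjusted p = 0.00108) and by 1.46 in CD8α+ cells (adjusted p = 0.00136). Tradd, the adaptor of Tnfrsf1a, fell by 1.06 (adjusted p = 0.0177) and 0.81 (adjusted p = 0.0471), and Sharpin, another subunit of the linear ubiquitin ligase, by 0.96 and 1.02. Map3k7, the kinase TAK1, fell by 0.87 in CD8α- cells, and Tnfaip2 by 1.69 in CD8α+ cells (adjusted p = 0.0107). Tnfaip8, Tnip2 and Litaf rose by 0.86, 0.67 and 0.63 in CD8α+ cells. No pathway gene passed the interaction test.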

How the data were processed

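Total RNA, extracted with ethanol and a Qiagen RNeasy cleanup, was labelled with biotin and hybridised to Affymetrix arrays, per the labels' protocols. The deposited values are log2 expression per probe set. Per the submitters' processing notes, GCRMA and affy were used for the wild type arrays and GCRMA for the knockout arrays, with versions not given in the sources used here. No scanner files were used. Members and lists were chosen with earlier results of these data known. Each gene was represented by its passing probe set with the highest mean over 8 arrays. A model of 4 group means was fitted to all 8763 genes with limma 3.58.1 in R 4.3.3 (eBayes, 4 residual degrees of freedom, 2-sided p, Benjamini-Hochberg), after a test on simulated data. The number of arrays limits the precision.

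Every member may be named. Members called in at least 1 comparison are given in full, those never called by range, and those under the filter by their highest value. Of the other pathway genes, the 4 with the largest called change in each direction are named, and marker genes are named as checks. Where the lower group was under log2 5 on all its arrays, a fold is at least that against 5. Alternatives were quantile normalization, median centring, no filter or a filter at 7, an offset of 16, a floor at 5, mean or separate probe sets, trend with robust eBayes, the compared groups alone, a replicate block, a change of at least 1 and leaving out each array. A crossed block and leaving out 2 knockout arrays were added after the data were seen. Plots used Python 3.11.15 and matplotlib 3.10.9.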

Additional observations from a re-analysis of the deposited data

How the results depend on the processing

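Of 648 repeats of the 30 called results of members over 22 alternatives, 577 kept the direction and the call, 69 kept the direction and lost the call, and 0 reversed. The 2 others came to a difference of 0 when values under 5 were set to 5 (Tnfsf14 between the wild type subsets and Fasl between the genotypes in CD8α+ cells). Several alternatives change the test and leave the difference as it is. Among them are separate probe sets, trend with robust eBayes, the blocks, the compared groups alone and a change of at least 1. Leaving out an array of a group not compared does so too. The direction could not reverse in these repeats, so the count of 0 reversed is no measure of robustness over all 648. The count of called members between subsets in wild type went from 6 to 3 without the filter on low values and from 3 to 6 when single arrays were left out, with 3 without either wild type CD8α- array or the second wild type CD8α+ array. In CD8α- cells the genotype count of 10 became 19 without the filter, where 36 members were tested, and 6 with a filter at 7, where 10 were, and it lay between 7 and 12 without single arrays. In CD8α+ cells the count of 7 became 17 and 3 under these filters and 3 without the knockout arrays with neutrophil transcripts, and it lay between 4 and 8 without single arrays, with 4 without the first wild type CD8α+ array. The interaction count was between 0 and 1 without single arrays, the 1 being Tnfsf14 without the second knockout CD8α- array. Where a group keeps 1 array, the spread of the other groups was assumed for it. Wherever leaving out arrays lowered a count of members, fewer genes were called over all genes too. Counts over all genes moved with the filter as well. Without it 1039 of 18193 genes were called between the wild type subsets, against 1499 of 8763 with it. Between the genotypes 10923 were called in CD8α- cells, against 3548, and 10678 in CD8α+ cells, against 3230. A filter at 7 gave 3032 and 2810. Of the 19 members called without the filter 14 were lower. These shifts are not read as a result about the family.

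Replicates with the same number did not deviate together (r from -0.146 to 0.112), so the numbers were not taken as pairs. With the replicate number as a block the counts were 6, 7, 10, 6 and 0 for the wild type subsets, the knockout subsets, the genotypes in CD8α- cells, the genotypes in CD8α+ cells and the interaction. With the pairing crossed in 1 knockout group, chosen after seeing the data, they were 7, 8, 10, 7 and 0.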
